A study of Homo sapiens with 3 samples.

Results

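Mitochondrial ribosomal protein genes were followed in SW48 cells, an established line from a human colorectal cancer. The genes were chosen by name. Each has at least 1 array probe with a single gene symbol that begins MRPL or MRPS followed by a digit, pseudogenes excluded. This gave 74 of the 18282 genes on the array, with 102 probes, 47 of the genes named MRPL and 27 named MRPS. The study compared 3 samples of stable, G418-selected cells, with 1 sample in each of 3 groups. The first group carried the empty vector pcDNA3.1, the second a plasmid overexpressing DDX3, an RNA helicase, and the third both this plasmid and one that knocks down YAP1, a transcriptional coactivator held in check by Hippo signalling. All groups share the host line and the drug selection, and no group carried the knockdown plasmid without the DDX3 plasmid. Each group is 1 stable culture, so culture and construct cannot be told apart.

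Mitochondria have their own ribosome, which translates the messages of the mitochondrial genome into core subunits of the respiratory chain and ATP synthase. All of its proteins are encoded in the nucleus, made in the cytosol and imported, and they assemble with mitochondrially encoded RNA into a large and a small subunit. Some descend from bacterial ribosomal proteins and others are found in mitochondria alone. Colorectal cancer cells, like other dividing cells, express these genes as part of their basic machinery.

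Values are array intensities on a linear scale, scaled so that each library had the same 75th percentile. Probes of 1 gene were averaged as log2 values, and a gene counted as measured where its average reached the library's floor, the median of all probes, at scaled intensities of 378 for the vector library, 382 for the library labelled DDX3 and 411 for the library labelled DDX3+YAPsi. These are called the DDX3-labelled and DDX3+YAPsi-labelled libraries below. With 1 sample per group no difference could be tested and none has a replicate check. Differences are log2, and "higher" and "lower" as calls mean at least 2-fold, or 1.5-fold where stated. The labels were not borne out by the targeted genes. The brighter of the DDX3X probes was at 49549 in the vector library, 57967 in the DDX3-labelled library and 48085 in the DDX3+YAPsi-labelled library, and the dimmer was at 1975, 879 and 813. YAP1, 1 probe, was at 18298, 20279 and 20768, highest where its knockdown was labelled. For the DDX3-labelled library against vector the DDX3X probes disagreed, at 0.23 and -1.17. Where the probes of these genes lie, and whether a plasmid transcript carries them, is not known. Directions below depend on labels that these genes do not bear out. Of 9 colorectal epithelial markers on the array 6 lay above the floor in every library, EPCAM, CDH1, KRT19 and CDX2 among them. KRT8, VIL1 and CEACAM5 did not. Of 3 leukocyte markers CD14 alone reached the floor in all libraries, of 4 fibroblast markers COL1A1 alone, and of 3 endothelial markers 0. Summed intensity ran from 1169 to 1682 for leukocyte markers, 2111 to 2821 for fibroblast markers and 805 to 1155 for endothelial markers. Each sum was highest in the DDX3+YAPsi-labelled library. CD14 alone had 1188, 1007 and 1533 and COL1A1 alone 2362, 1951 and 2623 in the vector, DDX3 and DDX3+YAPsi libraries. Dim genes in general, 2561 measured non-members under a mean log2 level of 10, had a median of 0.11 for DDX3+YAPsi against vector. The part of these markers in the results was not tested. In a bulk sample fewer cells and less RNA per cell cannot be told apart.

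Of the 74 genes, 70 were measured in all libraries, 94.6% of them beside 53.2% of all genes. MRPL28, a large-subunit protein with a bacterial counterpart, lay at 59.9, 63.4 and 56.6 in the vector, DDX3 and DDX3+YAPsi libraries, and MRPL16, which lies near the peptidyl transferase centre, at 171, 149 and 129. Both were below the floor in every library. MRPL52 was at 280, 415 and 212 and MRPS25 at 315, 466 and 378, so that each reached the floor in the DDX3-labelled library alone. The bounds this allows are small, at least 1.10-fold and 1.23-fold higher there than in the vector library. Intensities of different probes do not rank the genes by abundance, since probes bind with unequal efficiency. Of the 75 ribosomal proteins looked for under these names, MRPS23 and MRPS24 had no probe with a single symbol.

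**Figure D1:**
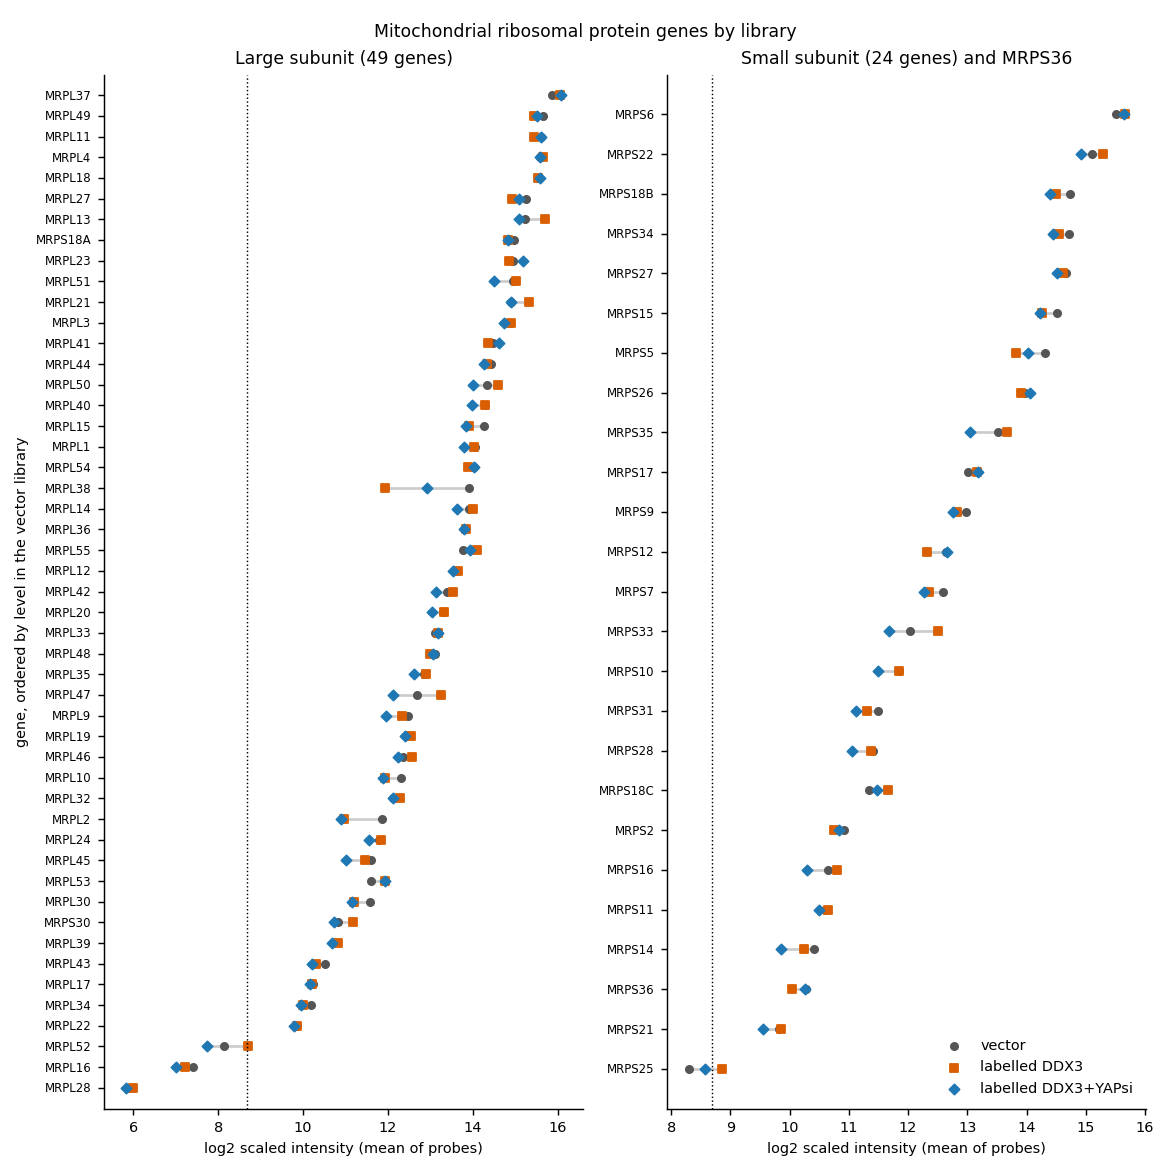
Log2 scaled intensity (x axis, mean over probes) of each mitochondrial ribosomal protein gene (y axis) in the vector, DDX3 and DDX3+YAPsi libraries, with large-subunit genes on the left and small-subunit genes and MRPS36 on the right. Grey bars span the libraries of a gene and the dotted line is the highest floor. MRPL38 has the widest bar, from 3881 to 15342 in intensity, and most genes differ by less than 0.5 between libraries.

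Between the DDX3-labelled library and the vector library, the values of the genes lay evenly around 0. Their median difference was -0.0038, beside -0.0070 for all 9863 measured genes. Of the 70 measured, 33 lay above 0 and 37 below, a share of 52.9% below 0 where 51.2% of all measured genes lay below it and 48.8% above. MRPL38 was the 1 member at least 2-fold lower (background 0.152% of measured genes), and 0 were at least 2-fold higher (background 0.183%). At 1.5-fold, MRPL38 and MRPL2 were lower (background 1.86%), and 0 were higher (background 1.73%).

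MRPL38, a mitochondria-specific protein of the central protuberance of the large subunit, reached a scaled intensity of 15342 with the empty vector, 3881 in the DDX3-labelled library and 7686 in the DDX3+YAPsi-labelled library. The vector library was the high one, and both plasmid libraries lay below it. The DDX3-labelled library was 3.95-fold lower than the vector library (-1.98), the difference ranked 2 from the lowest of 9863 genes. In the DDX3+YAPsi-labelled library the gene was 1.98-fold above the DDX3-labelled library (0.99) and 1.996-fold below the vector library (-0.997), both just short of 2-fold. All of these values rest on 1 probe, PH_hs_0025859, so no other probe bears on them.

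MRPL2, the counterpart of the bacterial protein L2 beside the peptidyl transferase centre, had 3725 in the vector library, 1984 in the DDX3-labelled library and 1913 in the DDX3+YAPsi-labelled library. It was low in both plasmid libraries, by -0.91 and -0.96 against the vector library, and these differed from each other by -0.052. The value also rests on 1 probe. MRPS5 (20298, 14482 and 16577), a small-subunit protein with a bacterial counterpart, was next with a difference of -0.49, followed by MRPL30 (-0.38), MRPL10 of the stalk base (-0.37), MRPL15 (-0.36) and MRPL27 (-0.34). On the other side lay MRPL47 (0.57), MRPS33 (0.48), MRPL13 (0.46), MRPL21 (0.41), MRPS30 (0.35), MRPL53 (0.33) and MRPL55 (0.33).

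MRPL47, the counterpart of bacterial L29 at the exit of the peptide tunnel, had 6532 in the vector library, 9708 in the DDX3-labelled library and 4429 in the DDX3+YAPsi-labelled library. The DDX3-labelled library was the high one and the DDX3+YAPsi-labelled library the low one. MRPL47 was 2.19-fold lower in the DDX3+YAPsi-labelled library than in the DDX3-labelled library (-1.13), ranked 7 from the lowest of 9834 genes, and differed by -0.56 from the vector library. It too rests on 1 probe, PH_hs_0014673.

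Because these were the members past 2-fold, the stretches around their transcription starts are shown, each from 250 bases before to 50 bases after the start as annotated by RefSeq in GRCh38.p14, read 5′ to 3′ on the gene's strand. The window of MRPL38 is chr17:75904835-75905134 on the minus strand and that of MRPL47 is chr3:179604589-179604888 on the minus strand. Capitals mark matches, on either strand, to an ETS-type motif (CCGGAAG) and a YY1-type motif.
MRPL38: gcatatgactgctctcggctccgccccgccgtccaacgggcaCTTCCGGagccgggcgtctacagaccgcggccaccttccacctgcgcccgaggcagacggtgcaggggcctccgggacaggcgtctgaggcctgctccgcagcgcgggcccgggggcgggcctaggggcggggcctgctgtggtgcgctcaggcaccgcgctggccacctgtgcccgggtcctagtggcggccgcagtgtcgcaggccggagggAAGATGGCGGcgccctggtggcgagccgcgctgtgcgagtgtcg
MRPL47: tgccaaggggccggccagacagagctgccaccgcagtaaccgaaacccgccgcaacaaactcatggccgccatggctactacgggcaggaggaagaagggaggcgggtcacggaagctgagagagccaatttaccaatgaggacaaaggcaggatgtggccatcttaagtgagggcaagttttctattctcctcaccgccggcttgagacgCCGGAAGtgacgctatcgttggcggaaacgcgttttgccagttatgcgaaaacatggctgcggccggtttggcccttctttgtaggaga
The window of MRPL38 had an ETS-type match whose first base lay 208 bases before the start and a YY1-type match, the second run of capitals, that begins 7 bases from it. The window of MRPL47 had an ETS-type match beginning 39 bases before the start.

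Most of these genes had lower values in the DDX3+YAPsi-labelled library than in the DDX3-labelled one. In this comparison 51 of 70 measured members lay below 0 (72.9%, background 47.4%) and 19 above it (background 52.6%), with a median of -0.099 beside 0.021 for all 9834 measured genes. Differences of single genes were mostly small, and 1 member, MRPL47, was at least 2-fold lower (background 0.163%). None was at least 2-fold higher (background 0.112%). At 1.5-fold 4 were lower (background 2.5%) and MRPL38 was higher (background 2.43%).

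The other 1.5-fold lower members were MRPS33, MRPS35 and MRPL13. MRPS33, a mitochondria-specific small-subunit protein, had gene values of 4182 in the vector library, 5815 in the DDX3-labelled library and 3269 in the DDX3+YAPsi-labelled library, and differed by -0.83 between the last and the second. MRPS35, also of the small subunit, had 11666, 13077 and 8475 (-0.63), and MRPL13, the counterpart of bacterial L13, had 38221, 52722 and 34733 (-0.60). In all 3 genes the DDX3-labelled library was the highest and the DDX3+YAPsi-labelled library the lowest. MRPL50 (-0.58), MRPL51 (-0.52), MRPS16 (-0.51) and MRPL45 (-0.45) followed. Above 0 the leading members after MRPL38 were MRPS12 (0.34), the counterpart of bacterial S12 in the decoding centre, MRPL23 (0.33), MRPL41 (0.26) and MRPS36 (0.21). The comparison shares the DDX3-labelled library with the comparison above, so a high value of that library enters both with opposite sign.

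Between the DDX3+YAPsi-labelled library and the vector library, 55 of 70 members lay below 0 (78.6%, background 47.8%) and 15 above it (background 52.2%). The median difference was -0.17, beside 0.017 for all 9855 measured genes, and the middle 50% of members ran from -0.32 to -0.019. No member reached 2-fold in either direction (background 0.203% lower and 0.274% higher). MRPL38, MRPL2 and MRPL45, a protein at the tunnel exit, were at least 1.5-fold lower (background 2.91%), and 0 were at least 1.5-fold higher (background 3.4%). MRPL45 had 3108 in the vector library, 2796 in the DDX3-labelled library and 2053 in the DDX3+YAPsi-labelled library (-0.60). MRPS14 (-0.56), MRPL47 (-0.56), MRPL9 (-0.52), MRPS35 (-0.46), MRPL51 (-0.44) and MRPL30 (-0.43) came next. The brightest probe of MRPS14 was at -0.27 and its others at -0.83 and -0.58, the last under the floor in every library. The highest were MRPL53 (0.35), MRPL23 (0.23), MRPL37 (0.23) and MRPS17 (0.18). Without MRPL38 and MRPL47, 53 of 68 members lay below 0 and the median was -0.17. How libraries were scaled moved these shares. With each library centred on its median, 85.7% of members lay below 0 against the DDX3-labelled library (61.1% of all genes) and 88.6% against vector (62.3%), and after a loess curve on level 71.4% (50.4%) and 74.3% (49.6%).

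**Figure D2:**
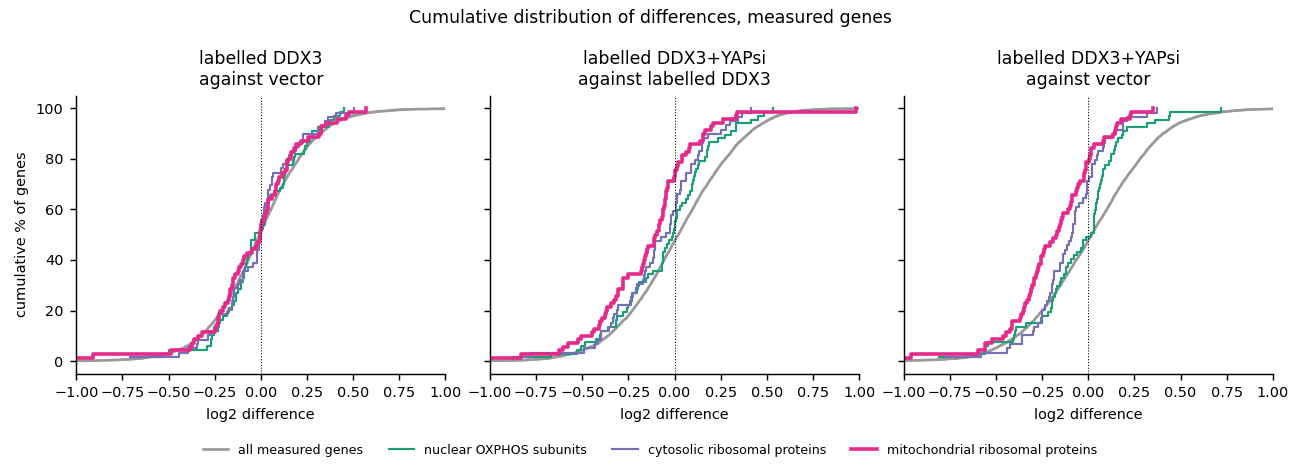
Cumulative share of measured genes (y axis, %) against log2 difference (x axis, shown from -1 to 1) in each comparison, for mitochondrial ribosomal protein genes, cytosolic ribosomal protein genes, nuclear oxidative phosphorylation (OXPHOS) subunits and all measured genes. The curve of the mitochondrial ribosomal protein genes runs with that of all genes for the DDX3-labelled library against vector and lies to its left in both other comparisons, with 72.9% and 78.6% of members below 0.

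Among the 70 members the DDX3+YAPsi-labelled library held the lowest value of the 3 for 46 (65.7%), the DDX3-labelled library for 15 and the vector library for 9. Among the 9728 genes measured in all libraries the DDX3+YAPsi-labelled library was the lowest for 34.7%. It held the highest value for 10 members (14.3%, beside 38.8% of all genes), the vector library for 31 and the DDX3-labelled library for 29. For 24 members the order from low to high was DDX3+YAPsi, vector, DDX3, as in MRPL47, and for 22 it was DDX3+YAPsi, DDX3, vector, as in MRPL2.

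The DDX3+YAPsi-labelled library was the dimmest as deposited, and differences of all genes varied with intensity, so members were set beside genes of like level. Over the middle 50% of the members' mean log2 levels in that comparison with the vector library, from 11.5 to 14.5, the 34 members had a median of -0.25 with 27 below 0, and the 3587 other genes a median of -0.022 with 53.3% below 0. In the range from 10 to 12, 18 of 20 members lay below 0, with a median of -0.28 beside 0.0095 for other genes. At a mean log2 level of 15 or more 5 of 10 members lay below 0, with a median of -0.0018 beside -0.064 for other genes. The brightest members thus lay on both sides of 0.

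**Figure D3:**
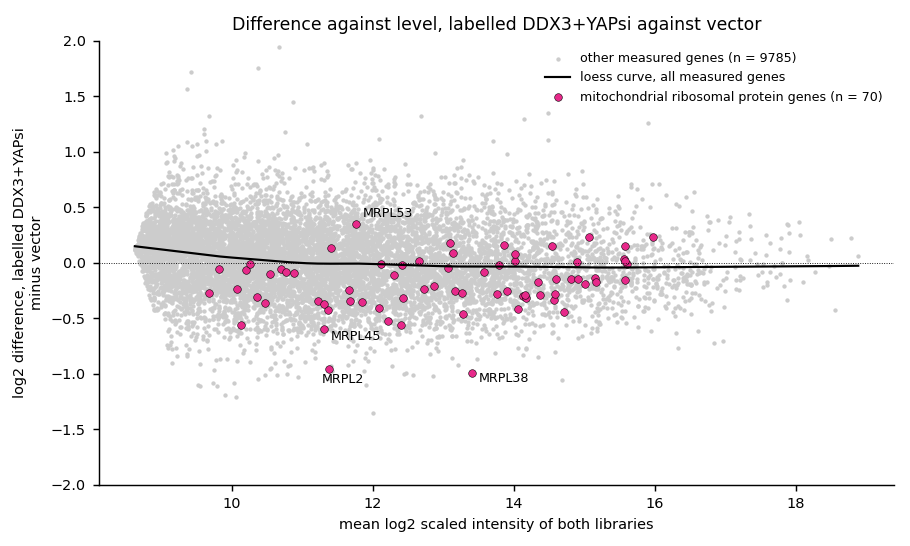
Log2 difference of the DDX3+YAPsi-labelled library minus the vector library (y axis) against the mean log2 scaled intensity of both (x axis), with mitochondrial ribosomal protein genes in pink, other measured genes in grey and a loess curve over all measured genes. Of the pink points 55 of 70 lie below 0, and those at a level of 15 or more lie around it.

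Genes of both subunits lay mostly below 0. Structures of the human ribosome put MRPS30 and MRPS18A in the large subunit, which gave 49 large-subunit and 24 small-subunit genes, and MRPS36 was counted in neither since it is now known as a subunit of the 2-oxoglutarate dehydrogenase complex. For the DDX3+YAPsi-labelled library against vector 36 of 46 measured large-subunit genes lay below 0 (median -0.14) and 18 of 23 small-subunit genes (median -0.28). Proteins with a bacterial counterpart had 33 of 43 below 0 (median -0.18) and those without one 21 of 26 (median -0.18). MRPS36 had 1232 in the vector library, 1057 in the DDX3-labelled library and 1223 in the DDX3+YAPsi-labelled library. The last differed from the vector library by -0.012. MRPS36 was chosen by its name, so it stays in the counts and medians given for all members.

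Neighbours within the large subunit were grouped here after the values were seen. Of the central protuberance, MRPL40, MRPL46 and MRPL48 differed by 0.0011, 0.22 and -0.11 between the DDX3-labelled library and the vector library, where MRPL38 was at -1.98. For the DDX3+YAPsi-labelled library against vector these 4 lay below 0, at -0.30, -0.11, -0.047 and, for MRPL38, -0.997. These 4 were picked from the proteins there and are not all of them, so their shared sign does not describe the protuberance. Genes left out of the 4 went the other way, such as MRPL18 (0.032) and MRPL55 (0.16). Of all measured large-subunit genes 36 lay below 0 and 10 above it. At the tunnel exit, the DDX3+YAPsi-labelled library differed from the DDX3-labelled library by -1.13 for MRPL47, -0.45 for MRPL45, -0.28 for MRPL24, -0.058 for MRPL22 and 0.33 for MRPL23. Against vector the same genes were at -0.56, -0.60, -0.24, -0.062 and 0.23. Between the plasmid libraries the bright probe of MRPL22 was at 0.14, opposite in sign to its gene value. Its other probe, at -0.26, had intensities of 71.2, 84.1 and 70.5, under the floor in every library. In the stalk that recruits translation factors, MRPL10, MRPL11, MRPL12 and MRPL53 were at -0.41, -0.015, -0.087 and 0.35 for the DDX3+YAPsi-labelled library against vector. The paralogs MRPS18A, MRPS18B and MRPS18C, which occupy different sites in the ribosome, were at -0.15, -0.33 and 0.13 in that comparison.

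Genes with several probes show how far probes of the same gene differ in a comparison of libraries. These probes share the same RNA samples, so their gaps do not cover variation between cultures. There were 26 members with 2 or more probes, and 20 had at least 2 probes at or above the floor in all libraries. The log2 differences of their probes lay a median of 0.21 apart for the DDX3-labelled library against vector. This gap was 0.18 between the plasmid libraries and 0.26 for DDX3+YAPsi against vector. Over all 2280 such genes these gaps were 0.24, 0.22 and 0.28. The probes had 1 sign in 12, 16 and 16 of the 20 genes. The probes of MRPS33 stood at -1.22 and -0.44 for DDX3+YAPsi against DDX3, and those of MRPL33, the counterpart of bacterial L33, at -0.33 and 0.34. For DDX3+YAPsi against vector the probes of MRPL19 stood at -0.43 and 0.38 and those of MRPS18C at -0.17 and 0.48, so their gene values average probes of opposite sign.

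**Figure D4:**
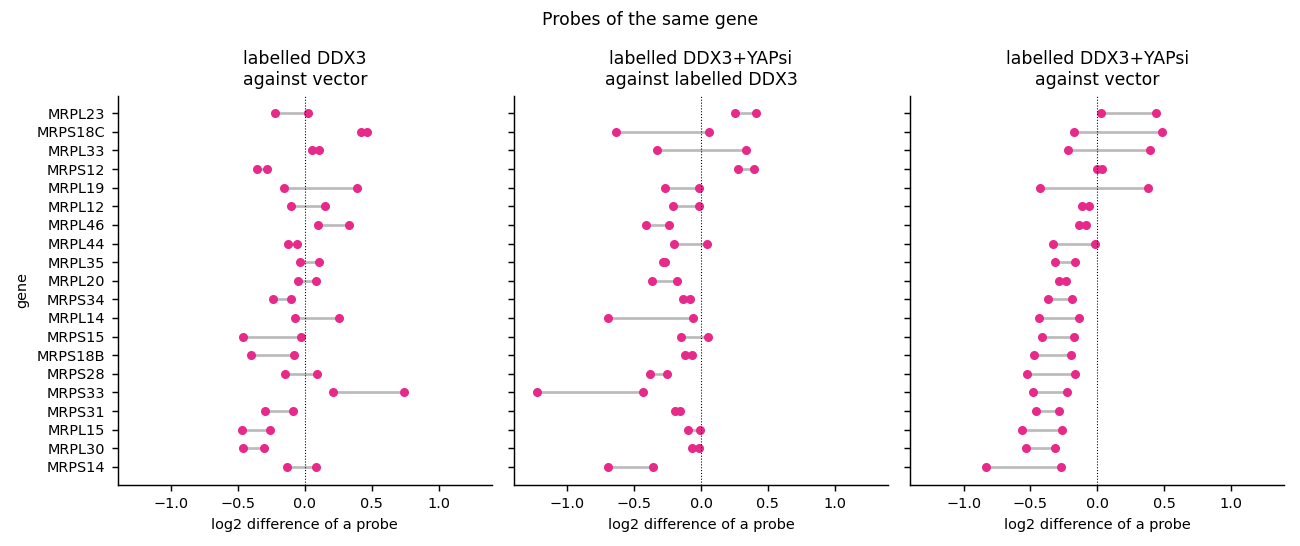
Log2 difference of each probe (x axis) for the 20 mitochondrial ribosomal protein genes with at least 2 probes at or above the floor in every library (y axis), in the comparisons named above each panel. Grey bars join the probes of a gene. In the right panel both probes lie on the same side of 0 for 16 of the 20 genes.

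Other genes of mitochondrial translation were looked at for the DDX3+YAPsi-labelled library, where 47.8% of all measured genes lay below 0 against vector and 47.4% against DDX3. Of the ribosomal proteins with other names, 6 were measured and all 6 were below 0 for the DDX3+YAPsi-labelled library against both other libraries, with medians of -0.27 against vector and -0.20 against DDX3. They were DAP3 (-0.57 against vector), a GTP-binding protein of the small subunit, GADD45GIP1 (-0.31), PTCD3 (-0.29), CHCHD1 (-0.25), MRP63 (-0.12) and the peptide release protein ICT1 (-0.067). Of 15 measured translation factors 10 were below 0 against vector, with a median of -0.11. The elongation factors GFM2 (-0.92) and GFM1 (-0.63) lay lowest, and the release factor MTRF1L (0.040), the messenger-binding protein LRPPRC (0.069) and the membrane insertase OXA1L (0.072) highest. Of 23 assembly factors 18 were below 0, with a median of -0.17, from WBSCR16 (-0.71), ERAL1 (-0.61), a chaperone of the small-subunit RNA, and METTL15 (-0.52) to MPV17L2 (0.44) and the GTPase GTPBP10 (0.67). A list of genes of mitochondrial transcription and replication had 9 of 12 below 0 and a median of -0.20. It also holds transcription factors of nuclear genes, NRF1 and GABPA among them. TFAM, which packages mitochondrial DNA, was at -0.49, NRF1 at -0.48 and GABPB1 at -0.23. The 3 above 0 were the ETS-family factor GABPA (0.37), POLRMT (0.34) and PPRC1 (0.22).

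Against the DDX3-labelled library the translation factors, assembly factors and transcription genes had 11 of 15, 15 of 23 and 8 of 12 below 0, with medians of -0.24, -0.15 and -0.23. The transcription factor TFB2M was at -0.66 and the helicase gene C10orf2 at -0.60, the 2 of this list at least 1.5-fold lower there (background 2.5%). For the DDX3-labelled library against vector the medians were 0.022, -0.031 and 0.0095, and ERAL1 (-0.78) and WBSCR16 (-0.62) were the assembly factors at least 1.5-fold lower (background 1.86%).

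The subunits of the respiratory chain and ATP synthase that are encoded in the nucleus lay evenly around 0. Of 67 measured, 33 lay below 0 for the DDX3+YAPsi-labelled library against vector, with a median of 0.0170. Cytosolic ribosomal protein genes had 42 of 59 below 0 and a median of -0.088, and the 16 mitochondrial tRNA synthetases, all measured, had 13 below 0 and a median of -0.40. These differences between gene groups were not tested, since genes of 1 library pair are not replicates.

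Some promoters of the members shared letters that their names did not choose. RefSeq windows of 300 bases in GRCh38.p14 were at hand for 66 of the 74 genes and for 15842 protein-coding genes in all. The letters CCGGAAG, on either strand, to which ETS-family factors such as GABPA bind, were found in 27 of the 66 windows (40.9%) and in 14.2% of all windows. The YY1-type motif, spelled by the second run of capitals in MRPL38 and holding the core bound by the zinc finger factor YY1, was found in 12 (18.2%) and in 1.93% of all. The NRF1 motif, whose match begins 116 bases before the start of MRPL30 below, was found in 7 (10.6%) and in 8.57% of all, CCAAT in 20 (30.3%, beside 36.4%) and TATAAA in 3 (4.55%, beside 9.63%). Of the 36 ETS-type matches 31 began no more than 100 bases before the start, and 9 of the 12 YY1-type matches began after it. There were 4 windows with both motifs, and 0 in which these matches overlapped. None of the ETS-type, NRF1 and YY1-type motifs was found in 27 of the 66 windows. The median share of G and C was 59.7% in the members' windows and 62.7% in all. The windows of all genes were not limited to measured genes, so whether an excess is particular to the members was not tested.

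Windows with more than 1 of the ETS-type, NRF1 and YY1-type motifs numbered 7. The first of them by name apart from MRPL38 show the combinations. The window of MRPL30 is chr2:99180934-99181233 on the plus strand and that of MRPL36 is chr5:1799788-1800087 on the minus strand, in the same build, with matches in capitals.
MRPL30: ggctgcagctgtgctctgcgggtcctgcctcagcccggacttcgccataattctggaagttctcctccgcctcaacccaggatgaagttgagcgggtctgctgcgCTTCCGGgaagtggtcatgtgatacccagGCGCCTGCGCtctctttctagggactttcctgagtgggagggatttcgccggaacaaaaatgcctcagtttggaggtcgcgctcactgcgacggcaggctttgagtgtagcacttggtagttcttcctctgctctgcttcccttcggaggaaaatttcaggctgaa
MRPL36: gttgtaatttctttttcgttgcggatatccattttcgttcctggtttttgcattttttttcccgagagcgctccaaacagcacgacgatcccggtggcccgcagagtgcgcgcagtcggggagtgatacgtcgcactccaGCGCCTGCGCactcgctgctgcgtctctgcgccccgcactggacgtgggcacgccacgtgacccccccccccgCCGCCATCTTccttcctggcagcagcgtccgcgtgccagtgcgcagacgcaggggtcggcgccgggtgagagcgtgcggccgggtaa
MRPL30 has the ETS-type match 145 bases and the NRF1 match 116 bases before the start. MRPL36 has the NRF1 match 110 bases and the YY1-type match 37 bases before it. The NRF1 matches and the YY1-type match in MRPL36 read as the motif on the opposite strand, so the capitals show its reverse complement. MRPL30, the counterpart of bacterial L30, had gene values of 3072, 2354 and 2286 in the vector, DDX3 and DDX3+YAPsi libraries. MRPL36, the counterpart of bacterial L36, had 14324, 14710 and 14079.

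The members were also divided by these letters, a split that was not tested. For the DDX3+YAPsi-labelled library against vector, 18 of 24 measured members with the ETS-type letters were below 0 (median -0.26) and 31 of 38 without them (median -0.11). All 11 measured members with the YY1-type letters were below 0 (median -0.15), as were 38 of 51 without them (median -0.17). All 7 with the NRF1 letters were below 0 (median -0.28), beside 42 of 55 without (median -0.15). A match describes letters in a window and does not show that a factor binds there.

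Many of these genes start head to head with another gene. Of the 66 members with a window, 17 (25.8%) had a protein-coding neighbour on the other strand whose start lay within 1000 bases and pointed away, beside 10.3% of all 15842 genes. MRPL46 and MRPS11 are each other's neighbour, so there were 16 pairs, and both genes were measured in 12. For the DDX3-labelled library against vector 10 of 12 pairs had the same sign in both genes, beside 53.3% of 430 other divergent pairs. Pearson's r was 0.78 and Spearman's rho 0.76, where the other pairs had r of 0.018 and rho of 0.042. Examples are MRPS12 at -0.32 with the mitochondrial seryl-tRNA synthetase SARS2 at -0.59, MRPL30 at -0.38 with MITD1 at -0.44, MRPL27 at -0.34 with EME1 at -0.24, and MRPL46 at 0.22 with MRPS11 at 0.062. Without MRPL46 and MRPL37, the members farthest from the median, these were 0.82 and 0.85, and without the pairs of MRPS12 and MRPL30, whose neighbours lay farthest out, 0.71 and 0.64. The correlation across pairs was 0.36 for DDX3+YAPsi against DDX3 (0.075 without MRPL51 and MRPS12, other pairs 0.22) and 0.21 for DDX3+YAPsi against vector (other pairs 0.13). The last was -0.19 without MRPL30 and MRPL27, whose neighbours lay farthest out. In each of the comparisons with the DDX3+YAPsi-labelled library 7 of 12 pairs had the same sign. Of the other divergent pairs 60.5% did against DDX3 and 56.8% against vector. All pairs share the same libraries, and pairs are not independent replicates.

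**Figure D5:**
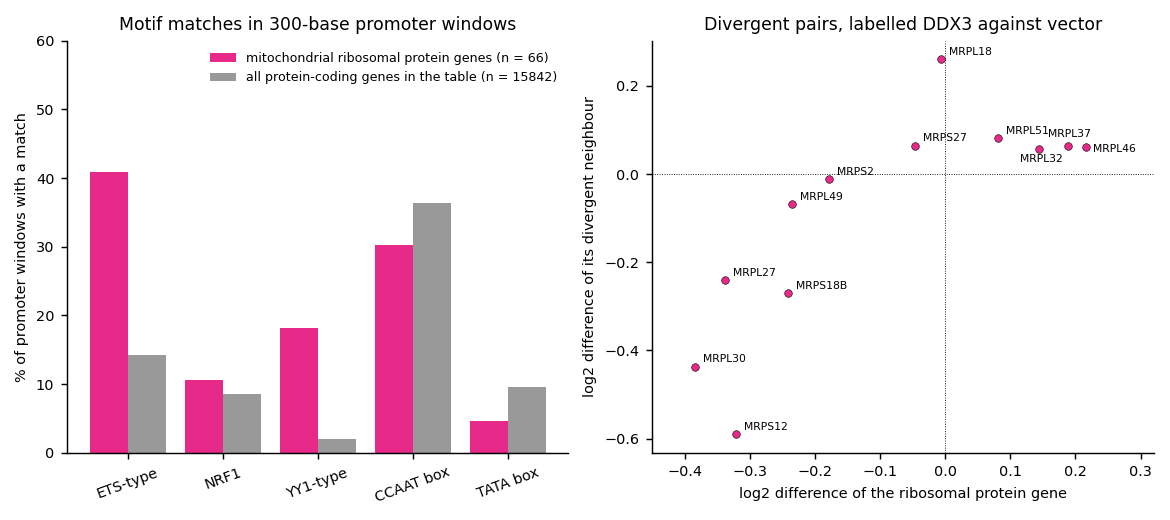
Left, share of 300-base promoter windows (y axis, %) with a match to each motif (x axis) among 66 mitochondrial ribosomal protein genes and all 15842 protein-coding genes with a window. Right, log2 difference of the DDX3-labelled library minus vector for 12 mitochondrial ribosomal protein genes (x axis) and their divergent neighbours (y axis). ETS-type and YY1-type matches stand at 40.9% and 18.2% of the members, and 10 of the 12 pairs lie in the lower left or upper right part.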

How the data were processed

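The authors hybridised Cy5-labelled RNA of 3 samples to 1-colour arrays, per the labels, each sample from 2 technical replicates. The deposited values are intensities on a linear scale. No source used here gives the background correction or how replicates were averaged. Their 75th percentiles differed (2856, 2495 and 1710). Of 31741 probes, 24658 have 1 symbol in the platform annotation, 1002 several and 6081 none, and those with 1 were used. Each library was scaled to a common 75th percentile, with the floor at the 50th percentile, in Python 3.11.15 with pandas 2.3.3, numpy 2.4.6, scipy 1.17.1 and statsmodels 0.14.6, and the steps were tested on simulated data. Sample number, 1 per group, limits precision, and no test was possible. Members and lists were chosen with earlier results of these data known, and the compared gene families, motifs, neighbour pairs and structural neighbours were added after values were seen. Named genes were MRPL38 and MRPL47, members past 2-fold, the 8 highest and 8 lowest per comparison, members below the floor, members with probe gaps of at least 0.5 and the MRPS18 paralogs, MRPS30 and MRPS36. For other lists they were the 3 highest and 3 lowest per comparison. Not all are printed. Alternatives were other scalings, floors, probe rules and a 1.5-fold threshold. Promoters and gene names came from RefSeq (GRCh38.p14).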

Additional observations from a re-analysis of the deposited data

How the results depend on the processing

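Without scaling, 2 members were at least 2-fold lower in the DDX3-labelled library than with the vector. In the DDX3+YAPsi-labelled library 7 were lower than in the DDX3-labelled one and 27 lower than with the vector, with medians of -0.1992, -0.644 and -0.9138. Of all measured genes 0.456%, 5.65% and 19.2% were then at least 2-fold lower. The medians of all genes moved with the members', so that members lay the same distance from all genes as with scaling. With median centring 2 members, MRPL38 (-1.12) among them, were at least 2-fold lower for DDX3+YAPsi against vector (0.446% of all genes), and the medians were -0.2048 against DDX3 and -0.2935 against vector. The median for DDX3 against vector turned to 0.0018 with quantile normalization and 0.0098 with loess, all close to 0. Taking each probe on its own, 2 probes were at least 2-fold lower for DDX3+YAPsi against DDX3. At 1.5-fold 2 members were lower for DDX3 against vector, 1 higher and 4 lower for DDX3+YAPsi against DDX3, and 3 lower for DDX3+YAPsi against vector. The other 80 counts and medians recomputed stayed within 0.1 (medians, log2) or 1.5 times (counts) of the reported value, a tolerance as wide as the median of -0.099 for DDX3+YAPsi against DDX3. They include those for the mean over probes at or above the floor, chosen after seeing the data. Relative to all genes, the members' median against vector ran from -0.30 with no floor to -0.13 with the floor at the 75th percentile, and -0.13 with loess. No paired analysis was possible because each group has 1 sample, and for the same reason no replicate could be left out. Signal near the floor limits MRPL28, MRPL16, MRPL52 and MRPS25, each with 1 probe. In all, 12 member probes lay under the floor in at least 1 library. The rest of them entered the gene values of MRPL17, MRPL22, MRPL39, MRPL43, MRPS11, MRPS14, MRPS18C and MRPS21, which counted as measured. For DDX3+YAPsi against DDX3 the bright probe of MRPL39 was at -0.74 and its probe under the floor at 0.44.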

Other observations

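Probes left out of the gene values are given here. The probes for MRPS24, which carry several symbols, had scaled intensities of 78017, 86998 and 81349 and of 148901, 171902 and 162404 in the vector, DDX3-labelled and DDX3+YAPsi-labelled libraries. The pseudogene MRPS31P3 had 2004, 1947 and 2097, and MRPL42P5 had 451, 375 and 509.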
